A study of Mus musculus with 374 samples.

Results

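The C/EBP proteins are a family of basic leucine zipper transcription factors, and here they were followed together with 3 other factors of the myeloid branch of blood, PU.1 (encoded by Spi1), GFI1 and IRF8. The family and its partners were named as 8 genes, Cebpa, Cebpb, Cebpd, Cebpe, Cebpg, Spi1, Gfi1 and Irf8, and 6 of the 8 were measured among 19829 mouse genes. Cebpa and Cebpg were not analysed here. The genes were chosen by name and not by a measured value, though with earlier results of these data known. Each was followed by its summed transcript count, its level and the number of wells with a count across 5 sorted cell populations.

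The cells came from 1 female C57BL/6 mouse of 10 to 13 weeks with no further treatment or allele named, and all shared 1 CEL-seq2 plate, on which each well received a single cell chosen by flow cytometry with its fluorescence recorded. Bone marrow gave 96 wells of granulocytes (gated as Mac1+ Gr1+), 95 wells of progenitor/stem cells (LSK, gated as Lin-, Kit+ and Sca1+), 44 wells of B lymphocytes (B220+ with low forward scatter) and 96 wells of erythroblasts (Ter119+ and CD44+ with mid to high forward scatter). The thymus gave 43 wells of T lymphocytes (CD3+ with low forward scatter). Each population was therefore 1 sample of 1 animal on its own plate rows, so population and plate position cannot be told apart, no test between populations was possible, and every interval given here covers counting error only.

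Each transcript was counted once through its unique molecular identifier (UMI), a random tag added before amplification. The populations held 135808 (B lymphocytes) to 834812 (progenitor/stem cells) UMIs on mouse genes, and the median per well ran from 3028 in B lymphocytes to 7959 in progenitor/stem cells. Levels are given as counts per 1000000 UMIs (CPM), from the UMIs summed over a population. The labels were checked against marker genes, and the summed granulocyte, B lymphocyte, T lymphocyte, erythroblast and progenitor/stem cell markers each had their highest level in the population of that name. Granulocytes also held 980 UMIs of 6 monocyte marker genes in 41 of 96 wells, of which 943 were in the 24 wells of lowest Gr1 fluorescence, and the ratios and list counts of granulocytes over progenitor/stem cells are given below with and without these 24 wells, while the levels and shares of wells by population include them. Also, B lymphocyte well A8 had a recorded Gr1 fluorescence of 15209 arbitrary units. Transcripts of the 8 granulocyte markers were read in the other populations at 1.13% (erythroblasts) to 4.41% (B lymphocytes) of their granulocyte level, and at 1.95% in B lymphocytes without wells A8 and B2, the latter with a high CD3 fluorescence.

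C/EBP proteins bind DNA as dimers through a basic region next to a leucine zipper, and different members take over at different steps of myeloid differentiation. C/EBPβ acts in monocytes, macrophages and in emergency production of granulocytes, C/EBPδ in acute-phase and inflammatory responses, and C/EBPε in the late steps of neutrophil differentiation, where the genes of the secondary (specific) granules are switched on. PU.1 is an ETS factor required for both myeloid and B cells, GFI1 is a zinc finger repressor that acts in stem cells, T cell precursors and neutrophils, and IRF8 directs monocyte and dendritic cell fates over granulocytes and also acts in B cells.

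Cebpb and Cebpe have a similar coding stretch, shown here because it encodes the DNA-contacting basic region and the start of the zipper, and because near-identical bases bear on whether reads of related genes can be told apart. Capitals mark the 77 of 90 bases that are identical in both genes, read from the GENCODE M21 transcripts.
Cebpb: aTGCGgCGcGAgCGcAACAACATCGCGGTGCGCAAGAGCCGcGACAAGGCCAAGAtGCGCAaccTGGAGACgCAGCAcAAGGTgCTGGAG
Cebpe: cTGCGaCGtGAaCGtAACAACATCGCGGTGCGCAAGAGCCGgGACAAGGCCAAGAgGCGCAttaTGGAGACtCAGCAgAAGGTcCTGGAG
The stretches are bases 679 to 768 of the 888 coding bases of Cebpb and 625 to 714 of 843 in Cebpe, and they were 85.6% identical. The longest run of bases shared by the whole transcripts of the 2 genes was 26. CEL-seq2 reads come from near the 3′ end of the transcript, and the stretch ends 120 bases before the end of the coding sequence in Cebpb and 129 in Cebpe.

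In GRCm38 the genes lie on 5 chromosomes. Cebpb (ENSMUSG00000056501) is a single-exon gene at chr2:167688915-167690418 on the plus strand, and Spi1 (ENSMUSG00000002111) is on the same chromosome and strand at chr2:91082390-91115756. Cebpd (ENSMUSG00000071637) is at chr16:15887286-15891031, plus strand, and Cebpe (ENSMUSG00000052435), with 2 exons, is at chr14:54710360-54712174, minus strand. Gfi1 (ENSMUSG00000029275) is at chr5:107716657-107726036, minus strand, and Irf8 (ENSMUSG00000041515) at chr8:120736358-120756694, plus strand. Cebpb overlaps Tmem189 on the opposite strand by 908 bases (84 UMIs in all for Tmem189), Cebpd overlaps Spidr by 1808 bases (39 UMIs) and Gfi1 overlaps A430072P03Rik by 880 bases (2 UMIs). Gm20388 spans the whole of Irf8 on the same strand and had 0 UMIs, either as a measured count or because it was not among the genes counted. The counting is not stated to have used strand, so reads of the opposite-strand partners may be included in these counts.

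Cebpb, Cebpd and Cebpe had their highest level in granulocytes, by 10.3-fold, 24.1-fold and 126-fold over progenitor/stem cells, which were next in order. The last ratio was on a single UMI (21.8 to 5065). In lymphocytes and erythroblasts the 3 genes together gave 9 UMIs over 183 wells. Spi1 was also highest in granulocytes, at 4.03 times its progenitor/stem cell level, but was read in all 5 populations. Irf8 was highest in B lymphocytes and next in granulocytes, and Gfi1 had its highest levels in T lymphocytes and progenitor/stem cells. The plot of level by population shows the 3 shapes.

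**Figure D1:**
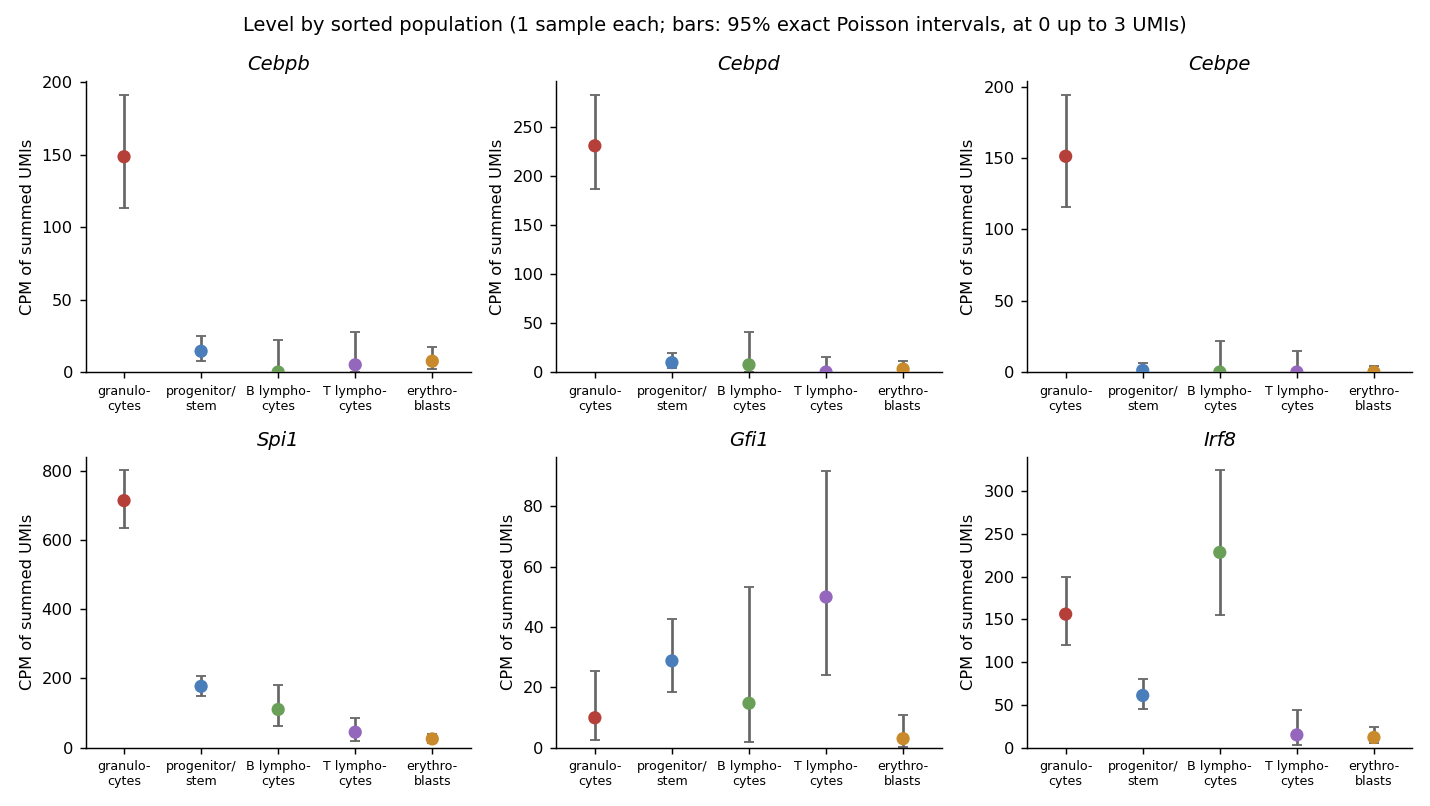
Level of each gene (CPM of summed UMIs, linear axis from 0, own scale per panel) in the 5 sorted populations, 1 point per population with its 95% exact Poisson interval, or up to 3 UMIs where the count is 0. The 3 C/EBP genes are near 0 outside granulocytes, Spi1 falls in steps from 714 CPM in granulocytes to 25.5 CPM in erythroblasts, and Irf8 is at 228 CPM in B lymphocytes and 156 CPM in granulocytes.

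Cebpb gave 60 UMIs in granulocytes, 12 in progenitor/stem cells, 5 in erythroblasts, 1 in T lymphocytes and 0 in B lymphocytes. As levels these were 149 CPM (95% exact Poisson interval 113 to 191) in granulocytes, 14.4 CPM (7.43 to 25.1) in progenitor/stem cells and 7.50 CPM (2.44 to 17.5) in erythroblasts. Granulocytes stood 10.3-fold above progenitor/stem cells (95% exact conditional binomial interval 5.51 to 21.1), and no other neighbours in the order differed beyond counting error. In progenitor/stem cells Cebpb was read at 9.67% (4.73 to 18.2) of its granulocyte level, against 1.51% for the granulocyte markers.

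Cebpd was the most counted of the 3 C/EBP genes in granulocytes, with 93 UMIs or 230.5 CPM (186 to 282). It gave 8 UMIs in progenitor/stem cells (9.58 CPM, 4.14 to 18.9), 2 in erythroblasts, 1 in B lymphocytes and 0 in T lymphocytes. The ratio of granulocytes over progenitor/stem cells was 24.1 (11.7 to 57.4), and the populations below them did not differ beyond counting error. The progenitor/stem cell level was 4.16% of that in granulocytes (1.74 to 8.54). The 1 UMI in B lymphocytes was 3.19% (0.0800 to 18.2), a range that includes the 4.41% of the granulocyte markers there.

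Cebpe was the most restricted, with 61 of its 62 UMIs in granulocytes. The remaining UMI was in 1 progenitor/stem cell well. The granulocyte level was 151 CPM (116 to 194) against 1.20 CPM (0.0303 to 6.67) in progenitor/stem cells, a ratio of 126 (21.8 to 5065) on that single UMI. B lymphocytes, T lymphocytes and erythroblasts were at 0, and the 3 UMIs that a count of 0 allows would be 22.1, 15.0 and 4.50 CPM. Cebpe was read in 0 of 44 B lymphocyte wells, which allows a share of up to 6.82%, in 0 of 43 T lymphocyte wells (up to 6.98%) and in 0 of 96 erythroblast wells (up to 3.13%). These limits are on wells with a UMI at this depth and not on cells that express the gene, and in granulocytes Cebpe was read in 32.3% of wells. The progenitor/stem cell level was 0.792% of that in granulocytes (0.0197 to 4.58), not above the 1.51% of the granulocyte markers.

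Spi1 was the most abundant of the 6 genes by UMIs, with 477 in all, of which 288 were in granulocytes, 148 in progenitor/stem cells, 15 in B lymphocytes, 9 in T lymphocytes and 17 in erythroblasts. The levels were 714 CPM (634 to 801), 177 CPM (150 to 208), 110.5 CPM (61.8 to 182), 44.9 CPM (20.5 to 85.3) and 25.5 CPM (14.9 to 40.8) in that order. Granulocytes were 4.03-fold above progenitor/stem cells (3.29 to 4.94) and B lymphocytes 2.46-fold above T lymphocytes (1.01 to 6.37). Progenitor/stem cells and B lymphocytes did not differ beyond counting error (1.61-fold, 0.942 to 2.94), nor did T lymphocytes and erythroblasts. Each of these levels was a larger share of that in granulocytes than the granulocyte markers were, down to 6.29% (2.85 to 12.1) against 2.41% in T lymphocytes and 3.57% (2.05 to 5.82) against 1.13% in erythroblasts. Without B lymphocyte wells A8 and B2, Spi1 had 14 UMIs in B lymphocytes, at 15.2% (8.23 to 26.0) of the granulocyte level.

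Irf8 gave 63 UMIs in granulocytes, 51 in progenitor/stem cells, 31 in B lymphocytes, 3 in T lymphocytes and 8 in erythroblasts. The highest level was in B lymphocytes, at 228 CPM (155 to 324), followed by granulocytes at 156 CPM (120 to 200), and these 2 did not differ beyond counting error (1.46-fold, 0.919 to 2.28). Progenitor/stem cells followed at 61.1 CPM (45.5 to 80.3), then T lymphocytes at 15.0 CPM (3.09 to 43.7) and erythroblasts at 12.0 CPM (5.18 to 23.6). Progenitor/stem cells were below granulocytes (2.56-fold, 1.74 to 3.77) and above T lymphocytes (4.08-fold, 1.32 to 20.4). The place of granulocytes in this order rests on 24 of their wells, described further on. Among the B lymphocytes, 4 measured plasmacytoid dendritic cell markers had 42 UMIs in 20 wells, of 0% to 0.195% of a well, with 40 UMIs of Tcf4, 2 of Cox6a2, and Siglech and Bst2 at 0. Their part in the Irf8 level was not tested. Irf8 had 30 UMIs in B lymphocytes without wells A8 and B2.

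Gfi1 was scarce, with 42 UMIs in all. Progenitor/stem cells gave 24, T lymphocytes 10, granulocytes 4, and B lymphocytes and erythroblasts 2 each. The levels were 49.9 CPM (23.9 to 91.8) in T lymphocytes, 28.7 CPM (18.4 to 42.8) in progenitor/stem cells, 14.7 CPM (1.78 to 53.2) in B lymphocytes, 9.91 CPM (2.70 to 25.4) in granulocytes and 3.00 CPM (0.363 to 10.8) in erythroblasts. No neighbours in this order differed beyond counting error, but some populations further apart did. T lymphocytes were 16.6-fold (3.55 to 156) and progenitor/stem cells 9.58-fold (2.38 to 83.7) above erythroblasts, on 2 erythroblast UMIs. Granulocytes were at 0.199-fold (0.0455 to 0.689) of the T lymphocyte level. The largest number of Gfi1 UMIs in any well was 2.

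In single wells, Spi1 was read in 92.7% of granulocytes (95% exact binomial interval 85.6 to 97.0), 75.8% of progenitor/stem cells, 34.1% of B lymphocytes, 16.3% of T lymphocytes and 14.6% of erythroblasts. The lowest, median and highest number of Spi1 UMIs per granulocyte well were 0, 3 and 11. Cebpd was read in 54.2% of granulocytes (43.7 to 64.4), Cebpb in 35.4% (25.9 to 45.8) and Cebpe in 32.3% (23.1 to 42.6), with highest counts per well of 6, 8 and 6. Outside granulocytes the highest share for these 3 was the 11.6% of progenitor/stem cells with Cebpb, and in T lymphocytes Cebpb was read in 2.33% of wells.

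Irf8 was read in a larger share of B lymphocytes, 43.2% (28.3 to 59.0), than of progenitor/stem cells, 21.1% (13.4 to 30.6), or granulocytes, 17.7% (10.7 to 26.8), although B lymphocyte wells held the fewest UMIs. With every well thinned to 1000 UMIs, which left out 2 granulocyte wells and 1 well each of B lymphocytes, T lymphocytes and erythroblasts, these shares were 21.0%, 4.38% and 7.37%, so the order of the last 2 turned. The thinned shares for Spi1 were 54.1% of granulocytes, 16.9% of progenitor/stem cells and 12.2% of B lymphocytes. The bars of wells with a UMI show both versions. For the C/EBP genes granulocytes kept the highest share after thinning, at 14.5% for Cebpb, 23.7% for Cebpd and 10.8% for Cebpe.

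**Figure D2:**
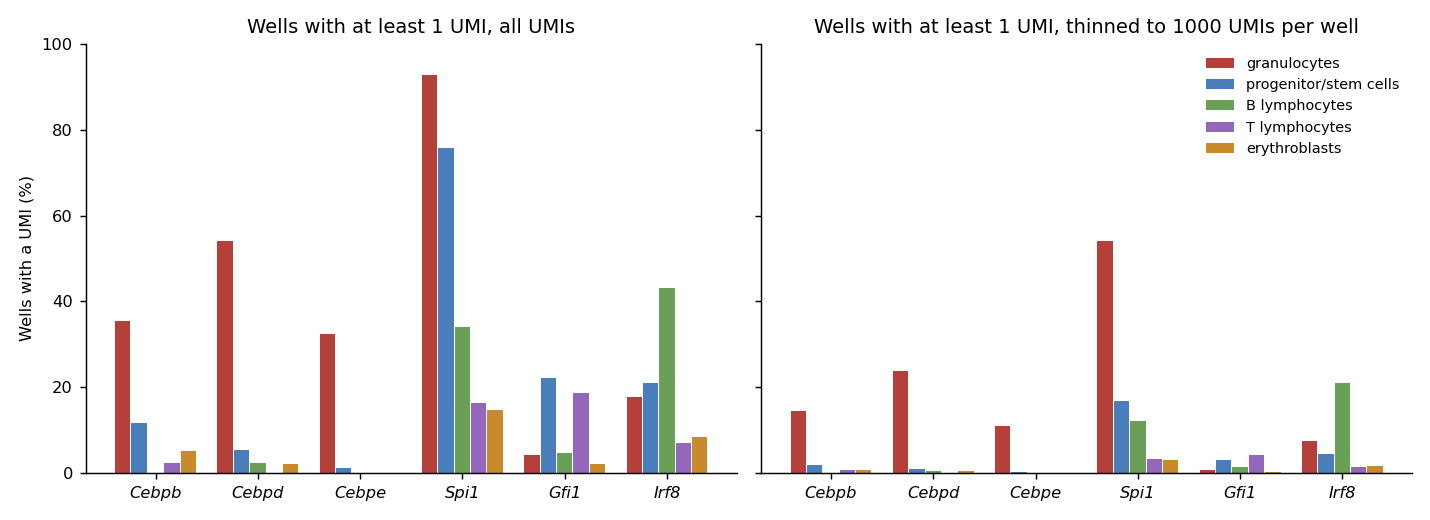
Share of wells with at least 1 UMI of each gene (%, axis from 0), by population, with all UMIs (left) and after thinning each well to 1000 UMIs (right). Spi1 is in 92.7% of granulocyte wells and 54.1% after thinning, and Irf8 has its highest share in B lymphocytes in both panels.

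Granulocytes and progenitor/stem cells were then compared across all genes, calling a gene higher or lower at 2-fold or more where the 2 populations together held at least 20 UMIs, with sums under 3 UMIs set to 3. By this rule 11.7% of 7826 genes were higher in granulocytes and 48.2% were lower. Of the 6 members 5 were higher, Cebpb, Cebpd, Cebpe, Spi1 and Irf8, and Gfi1 was lower. The median log2 ratio was 2.69 over the 6 members and -0.95 over all genes tested. Gfi1 had a log2 ratio of -1.54 with an interval from -3.52 to 0.01, so its lower level was within counting error, and it was no longer past 2-fold with scran or TMM factors, which moved the median log2 ratio of all genes by 0.83 and 0.77.

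Between B lymphocytes and progenitor/stem cells, 7.51% of 7297 genes were higher and 19.3% lower in B lymphocytes. Of the 3 members with enough UMIs, Irf8 was higher by 3.74-fold (2.31 to 5.95), while the log2 ratio was -0.68 (-1.56 to 0.09) for Spi1 and -0.97 (-4.09 to 1.05) for Gfi1, neither past 2-fold. Scaled per UMI of the ERCC spike-in RNA, which moved the median of all genes by -1.32, the log2 ratio of Irf8 fell from 1.90 to 0.58.

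T lymphocytes held 9.17% of 7565 genes higher and 19.4% lower than progenitor/stem cells. Spi1 and Irf8, 2 of the 3 members tested, were lower, by log2 ratios of -1.98 (-3.14 to -1.02) and -2.03 (-4.35 to -0.40). Gfi1 had a log2 ratio of 0.80 (-0.43 to 1.91). In erythroblasts 12.1% of 8076 genes were higher and 49.4% lower, and all 3 members tested were lower, Spi1 by a log2 ratio of -2.80 (-3.62 to -2.07), Irf8 by -2.35 (-3.64 to -1.26) and Gfi1 by -3.26 (-6.39 to -1.25) on 2 UMIs. The median of all genes in erythroblasts was -0.98, and the 4 comparisons share the progenitor/stem cells. The log2 ratios are drawn together in the plot against progenitor/stem cells.

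**Figure D3:**
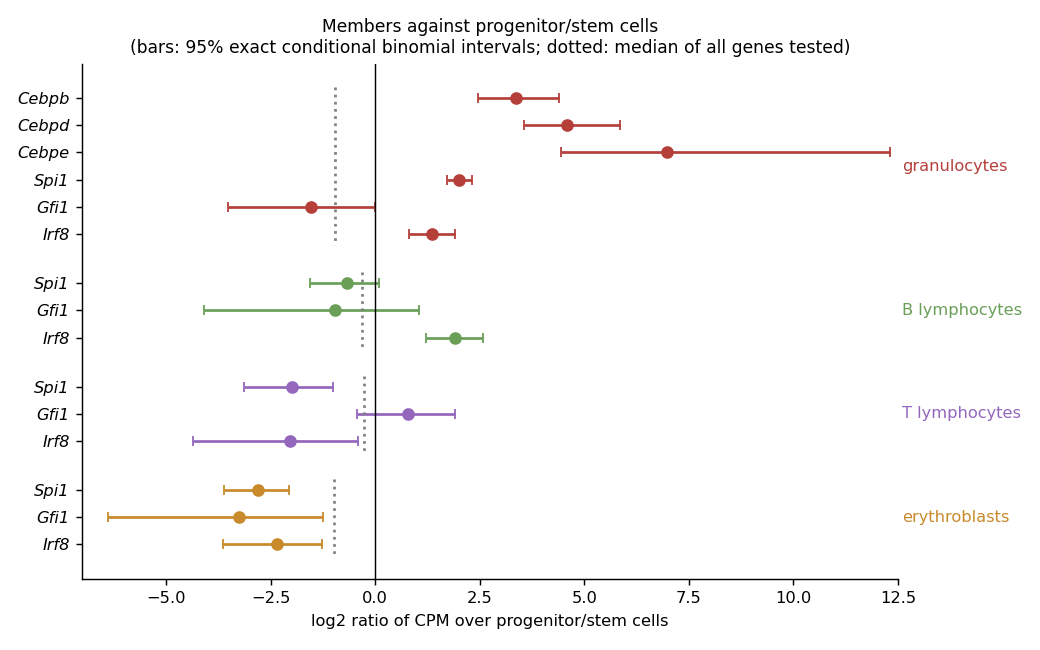
log2 ratio of CPM in each population over progenitor/stem cells for members with 20 or more UMIs in the pair (points, with 95% exact conditional binomial intervals); dotted lines mark the median of all genes tested. In granulocytes 5 of 6 members are above 0 and Gfi1 is below, and in erythroblasts all 3 members are below 0. Without the 24 granulocyte wells of lowest Gr1, Irf8 in granulocytes falls to -1.65, with a median of all genes of -1.14.

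B lymphocytes and granulocytes were compared directly, with 23.6% of 3828 genes higher and 24.1% lower in B lymphocytes. Cebpb, Cebpd, Cebpe and Spi1, 4 of the 5 members tested, were lower, Spi1 by a log2 ratio of -2.69 (-3.55 to -1.95). Cebpb and Cebpe were at 0 in B lymphocytes. With the 0 set to 3 UMIs they were 6.73-fold and 6.84-fold lower there, and the exact intervals reached down to 5.31-fold and 5.40-fold. Without the 24 granulocyte wells of lowest Gr1, and with the 0 again set to 3 UMIs, the log2 ratios were -2.25 for Cebpb and -2.50 for Cebpe.

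The granulocyte wells were not alike in these genes. The Gr1 antibody binds Ly6G, a surface protein of neutrophils, and also Ly6C, which monocytes carry. Recorded Gr1 fluorescence ran from 736 arbitrary units upward, with a median of 18601. The 24 wells of lowest Gr1, up to 6463 units, held 58 of the 63 granulocyte UMIs of Irf8, or 395 CPM (300 to 510), against 5 UMIs or 19.5 CPM (6.33 to 45.5) in the other 72 wells. The ratio was 20.3 (8.20 to 64.7). Well I17, described further on, held 24 of the 58 UMIs, and this ratio was not computed without it. The same 24 wells held 943 of the 980 UMIs of the 6 monocyte markers, Csf1r, Ccr2, F13a1, Ms4a6c, Ly86 and Fn1, none of which was at 0 in granulocytes and which together took 0% to 1.59% of a well. The macrophage markers gave 11 UMIs in all granulocyte wells, with C1qa and C1qc at 0. The part of monocyte RNA in the Irf8 level was not tested. This split into 24 and 72 wells was chosen after the values were seen.

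With the 24 wells left out, Irf8 in granulocytes was below its progenitor/stem cell level, with a log2 ratio of -1.65 (-3.33 to -0.33), and B lymphocytes stood 11.7-fold above granulocytes (4.52 to 38.6). In that comparison with progenitor/stem cells 11.0% of 7451 genes were higher and 55.8% lower in granulocytes. The median log2 ratio of all genes tested was -1.14, which lies within the interval of Irf8, on 5 granulocyte UMIs. Irf8 was the 1 member lower past 2-fold, and Gfi1 (-0.88) was not. The other 4 members kept their side over progenitor/stem cells, at 7.32-fold (3.59 to 15.9) for Cebpb and 27.2-fold (13.1 to 65.7) for Cebpd. Cebpe was at 104-fold (17.4 to 4239) and Spi1 at 4.64-fold (3.74 to 5.76).

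By the 24-well steps of rising Gr1, Irf8 had 58, 2, 2 and 1 UMIs and Cebpe had 29, 20, 7 and 5. Cebpb had 33 UMIs in the lowest step and 8, 9 and 10 above it, Cebpd had 26, 21, 21 and 25, and Spi1 had 77, 79, 66 and 66. As levels, Spi1 was lower in the 24 wells of lowest Gr1 than in the rest, at 0.637-fold (0.484 to 0.831). Csf3r, the receptor of the growth factor of neutrophils, went the other way from Irf8, with 32, 76, 96 and 132 UMIs, and Csf1r, the receptor of the growth factor of monocytes, had 56, 7, 7 and 10. Wells of low Gr1 were also deeper, with a median of 5522.5 UMIs in the lowest 24 against 3283 in the others, and the part of depth in these differences was not tested.

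**Figure D4:**
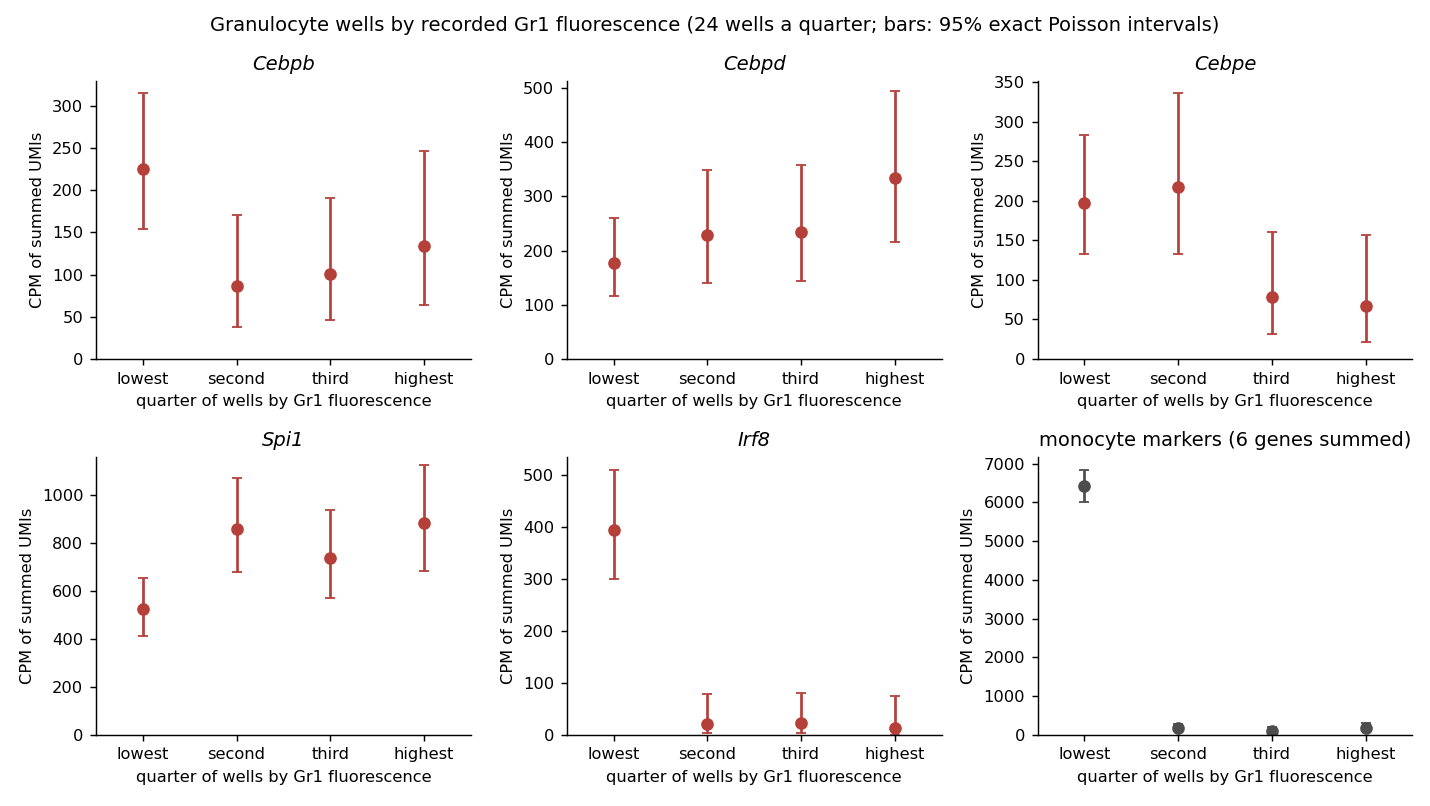
Level (CPM of summed UMIs, linear axis from 0) of 5 members and of 6 summed monocyte markers in granulocyte wells grouped by recorded Gr1 fluorescence, 24 wells per group, with 95% exact Poisson intervals. Irf8 and the monocyte markers are concentrated in the lowest group (395 CPM of Irf8 against 21.7, 22.3 and 13.4 CPM), and Cebpe is higher in the lower 2 groups than in the upper 2.

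With the wells parted at the median Gr1 into 48 and 48, Cebpe was 2.81-fold higher in the wells of lower Gr1 (49 against 12 UMIs, 1.47 to 5.81), and 2.72-fold (1.41 to 5.67) without its top well. Irf8 was 13.8-fold higher (60 against 3 UMIs, 4.49 to 68.6), and 8.39-fold (2.65 to 42.6) without its top well. Cebpb, Cebpd and Spi1 did not differ beyond counting error between these wells, although without their top wells Cebpd was 1.60-fold (1.03 to 2.49) and Spi1 1.29-fold (1.01 to 1.65) higher in the wells of higher Gr1. Parted at the median Mac1 fluorescence, Cebpe was 2.19-fold higher in the wells of higher Mac1 (1.23 to 4.09). Irf8 was at 96.0 CPM in the wells of higher Mac1 and 227 CPM in those of lower Mac1, but at 96.0 and 99.4 CPM without well I17.

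Within the 24 wells of lowest Gr1, those with and without Irf8 carried different granule and monocyte transcripts, which is given as a description with no test. The 13 wells with an Irf8 UMI had 0.367% to 1.59% of their UMIs on the monocyte markers, with a median of 1.23%, while 10 of the 11 wells without Irf8 had none of these transcripts and the other 0.0158%. The specific granule genes Ltf, Camp, Ngp, Lcn2, Chil3 and Mmp8 took 0.149% to 2.31% of UMIs in the 13 wells. In the 11 wells they took 6.52% to 15.5%. The 0.367% was that of well I17 and the 2.31% that of well I13, both described further on. Genes beyond those named here were not compared in this way. One of the 11 wells, G3, held only 69 UMIs on mouse genes, too few to read a lack of Irf8 or monocyte transcripts from. Cebpb was read in 11 of the 13 wells with Irf8 (31 UMIs) and in 2 of the 11 without (2 UMIs). Cebpe was read in 2 of the 13 (7 UMIs, of which 6 in 1 well) and in 8 of the 11 (22 UMIs). Spi1 was read in 12 of the 13 and 9 of the 11.

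Over all 96 granulocyte wells, as a description of cells that share 1 library and differ in depth, the Spearman correlation of Cebpe with the share of specific granule transcripts was 0.61, and that of Irf8 with the share of monocyte markers was 0.60. Cebpb went with the monocyte markers (0.47) and against the specific granule genes (-0.43), and Cebpe went against the monocyte markers (-0.32). Cebpd and Spi1 followed neither list, with correlations between -0.13 and 0.03. The scatter of single wells shows the separation.

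**Figure D5:**
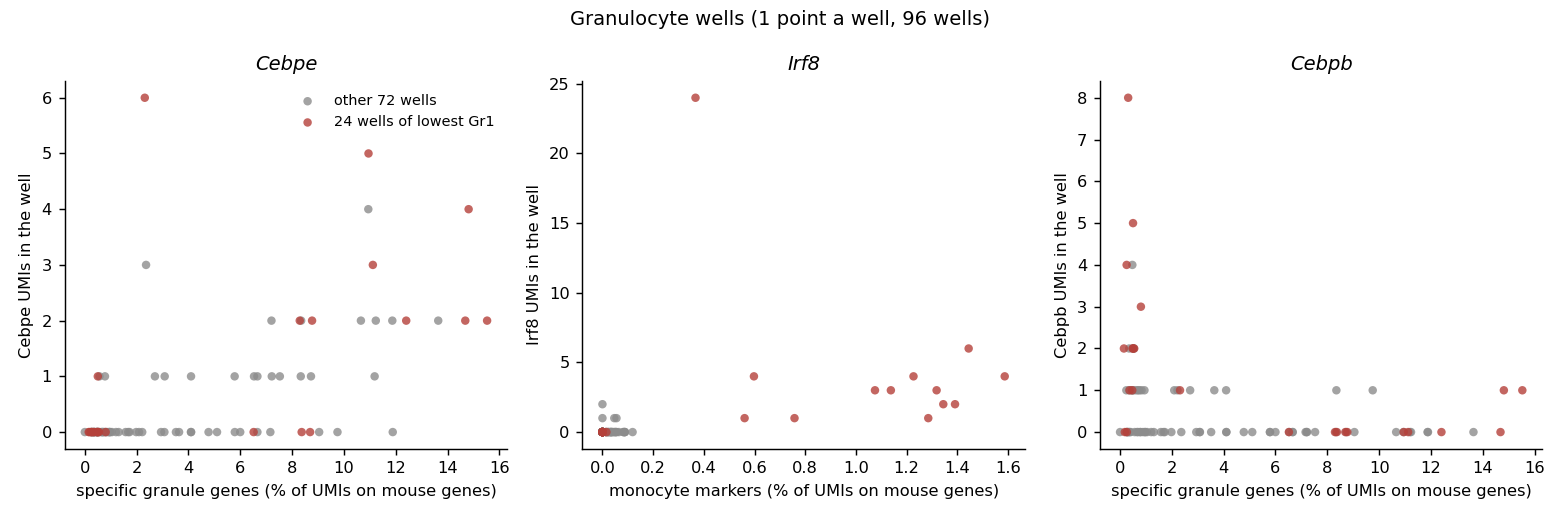
UMIs of Cebpe, Irf8 and Cebpb in each of 96 granulocyte wells against the share of UMIs on specific granule genes or monocyte markers (%), with the 24 wells of lowest Gr1 in red. Cebpe UMIs are more frequent where specific granule transcripts are (Spearman 0.61). Of the wells with Irf8, the 13 among the 24 of lowest Gr1 have 0.367% or more on monocyte markers, and the 4 others have 0% to 0.0554%.

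Some wells carried much of a gene. Well I17, with a Gr1 of 1170 units, had 24 of the 63 granulocyte UMIs of Irf8, and 26 of its 3814 UMIs were on plasmacytoid dendritic cell markers against 49 in all granulocytes. The top 5 wells held 66.7% of Irf8 UMIs in granulocytes but 14.6% of those of Spi1. Well G20 had the most Cebpb (8 UMIs) and Spi1 (11), together with 6 of Irf8 and 0 of Cebpe, and 1.44% of its UMIs were on monocyte markers. Well I13, the deepest granulocyte well with 22425 UMIs, held the most Cebpe (6) together with 4 Irf8 UMIs, 134 monocyte marker UMIs and 519 specific granule UMIs. The same well had 1.11% of its UMIs on the primary granule genes Mpo, Elane, Prtn3, Ctsg and Ms4a3, the highest share of a granulocyte well. Its Kit fluorescence, 1511 arbitrary units, and its forward scatter were also the highest among granulocyte wells. Whether it held 1 cell or 2 was not tested.

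Pairs of members were then counted in single wells. Of the 17 granulocyte wells with Irf8, 16 also had Spi1, 12 had Cebpb, 6 had Cebpd and 3 had Cebpe. Over all 96 granulocyte wells Spi1 was read in 89, Cebpb in 34, Cebpd in 52 and Cebpe in 31. The part of depth in these pairs was not tested. Cebpd and Cebpe were read together in 18 wells and Cebpb and Cebpe in 6. No granulocyte well had all 6 members, and all but 2 of the 96 had at least 1. In progenitor/stem cells 13 of 95 wells had none and 50 had 1, against 70 of 96 erythroblast wells with none.

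In progenitor/stem cells, Gfi1 and Irf8 were read together in 10 of 95 wells, Gfi1 alone in 11, Irf8 alone in 10 and neither in 64. These wells held 2003 to 24033 UMIs each, and the part of depth in this overlap was not tested. Irf8 reached 13 UMIs in well K20, and the top 5 wells held 51.0% of its 51 UMIs. Parted at the median Kit fluorescence, Irf8 was at 41.0 CPM in the wells of higher and 80.95 CPM in those of lower Kit, a difference within counting error without well K20 (41.0 and 51.7 CPM). Spi1 had 74 UMIs on each side of the median Kit. Cebpd had 2 UMIs in the wells of higher and 6 in those of lower Kit, which was within counting error. Both UMIs on the higher side were in well L20, one of 3 wells with 2 UMIs. Leaving that well out sets the higher side to 0, so no difference can be read from it. With all wells kept, no member differed beyond counting error across Sca1 fluorescence, or across forward scatter in B lymphocytes.

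The genes with the population profile closest to each member were found as those with at least 100 UMIs and the smallest distance, that is, the smallest share of the profile that would have to be moved from one population to another to match. Closest to Cebpe was Tgfbi (distance 0.0103 of a possible 1, 3905 genes compared), then Plbd1 and Slpi. Closest to Cebpd were Anxa1 (0.0156), Clec4a2 and 6430548M08Rik, and to Cebpb, Tbc1d8 (0.0300), Pygl and Dhrs7. Spi1 was most like Rab32 (0.0374), the cytokine receptor gene Csf2ra (0.0536) and the leukotriene pathway gene Alox5ap (0.0572). Irf8 was most like Apobec1 (0.0396), the Toll-like receptor chaperone gene Unc93b1 (0.0703) and Chst15 (0.0793). The profiles have 5 points, so the likeness is a description of those points.

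Genes known as targets or partners of these factors were compared in granulocytes over progenitor/stem cells, where 11.7% of all genes tested were higher and 48.2% lower. All 6 specific granule genes, which C/EBPε activates, were higher, with a median log2 ratio of 5.76. Of 9 phagocyte genes with PU.1 sites, 8 were higher and 0 lower, among them Cybb, the membrane subunit of the oxidase (5.39, 5.00 to 5.80), and Itgam, a chain of Mac1, the protein of the gate (4.01, 3.61 to 4.44). The 4 myeloid cytokine receptor genes measured were all higher, Csf3r by 2.70 (2.38 to 3.03) and Csf1r by 3.37 (2.58 to 4.25). Of the primary granule genes, made earlier in granulocyte differentiation, 1 of the 3 tested was higher, Elane at 4.11 (3.38 to 4.93), and Mpo was at -0.90 (-1.38 to -0.44). Of the 281 primary granule UMIs in granulocytes, 259 were in the 24 wells of lowest Gr1, of which 8 had any. Most of these UMIs were in well I13, with 1.11% of its UMIs on these genes, while the median granulocyte well had 0%. The ratios of the primary granule genes were not computed without that well alone. The median of all genes in this comparison was -0.95. Without these 24 wells, where 11.0% of all genes tested were higher and 55.8% lower, the counts were the same for the specific granule (6 of 6 higher), phagocyte (8 of 9) and receptor genes (4 of 4), with Csf3r at 3.21 (2.89 to 3.54) and Csf1r at 2.29 (1.31 to 3.30). Of the 3 primary granule genes, Elane was then at 1.20 (0.00 to 2.35) on 12 UMIs, and Mpo and Prtn3 were lower, Mpo at -4.89 (-7.95 to -3.02) on 2 UMIs.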

How the data were processed

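The authors deposited 1 table of UMI counts per gene and well, made with their scPipe package from CEL-seq2 reads; the build and annotation they aligned to, and whether strand was used, are not stated. Wells were assigned to populations from the sample titles, and 9 further columns, whose names fit no sample, stayed out. The members and lists were chosen with earlier results of these data known. No barcode was shared by 2 wells, with 0 repeats, and no doublet caller was run because wells were sorted singly.

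UMIs were summed per population, divided by the total on mouse genes and expressed per 1000000 UMIs (CPM). Intervals at 95% are exact Poisson for levels, exact (Clopper-Pearson) binomial for shares and exact conditional binomial for ratios (scipy 1.17.1). They cover counting error only. The limit printed for a level or a share of 0 is that of 3 counts, and ratios with a 0 on one side keep the bound of the exact interval unless the text names the 3 UMIs. Populations ranged from 135808 to 834812 UMIs, so 1 UMI is worth most in B lymphocytes. With 1 sample per population no test was run. The genes named are the members, the genes of the fixed lists and, for members with at least 50 UMIs, the 3 genes of nearest profile. Genes were called at 2-fold with at least 20 UMIs in the pair and sums under 3 raised to 3. Thinning to 1000 or 2000 UMIs used the exact expected share. Scaling alternatives were scran 1.30.0, edgeR 4.0.16 (TMM), ERCC spike-ins and CPM without the most abundant genes. The computation was checked on simulated Poisson counts of summed populations. For granulocytes against progenitor/stem cells, 96.5% of intervals over 7826 genes held the true ratio, and 4.20% of unchanged genes passed 2-fold. The intervals assume the same Poisson model, so this check cannot show how they behave with uneven wells. Names, coordinates and coding sequences were taken from GENCODE M21 (GRCm38), matched by Ensembl ID.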

Additional observations from a re-analysis of the deposited data

How the results depend on the processing

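In the comparison of granulocytes with progenitor/stem cells, Gfi1 was the 1 member lower by 2-fold, and the number of members lower was 0 with scran factors, TMM factors, a minimum of 50 UMIs, a 4-fold limit, and a limit that also asks for an interval without 0. In B lymphocytes over progenitor/stem cells the number higher (1, Irf8) became 0 per ERCC UMI and at 4-fold and 3 with no minimum of UMIs, and the number lower (0) became 2 per ERCC UMI. In T lymphocytes the number higher (0) became 1 with no minimum, and the number lower (2) became 1 at 4-fold. In B lymphocytes over granulocytes the number higher (0) became 1 without the well with the most UMIs of each gene, 1 with no minimum, and 1 (Irf8) without the 24 granulocyte wells of lowest Gr1. The extra calls with no minimum arise from sums of 0 to 2 UMIs raised to 3. Without those 24 wells, an alternative chosen after seeing the data, the log2 ratio of Irf8 in granulocytes over progenitor/stem cells turned from 1.35 to -1.65 and was the 1 that changed sign among called ratios. Per ERCC UMI the same ratio was 0.40. Among ratios not past 2-fold, Gfi1 in T lymphocytes over progenitor/stem cells went down to -0.10 and Irf8 in B lymphocytes over granulocytes to -0.12. With sums under 3 UMIs set to 3, by which the Cebpe ratio is 5.39, and over all alternatives, the log2 ratio in granulocytes over progenitor/stem cells stayed between 2.41 and 4.20 for Cebpb, 3.63 and 5.41 for Cebpd, 4.44 and 6.22 for Cebpe, and 1.05 and 2.84 for Spi1. Of 124 counts of members recomputed, 14 moved by more than 1.5 times. Thinning changed 32 of 60 shares of wells beyond their counting intervals. No paired analysis was possible because each population is 1 sample. With 1 mouse, no value here carries an error between animals, and genes with few UMIs, Gfi1 above all, can differ several-fold within counting error.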

Other observations

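Among 20 genes listed as C/EBP relatives and partner factors, 18 were measured. Of 12 with enough UMIs in granulocytes and progenitor/stem cells, 4 were higher in granulocytes: Klf4, a factor of monocyte differentiation (28 against 2 UMIs), Id2, an inhibitor of E proteins (60 against 9), Trib1, which directs C/EBPα to degradation (23 against 3), and Junb (36 against 18). Myb, a factor of progenitor growth, was lower, with 13 UMIs against 548, and so was Runx1 with 28 against 155. In all, 11.7% of 7826 genes were higher and 48.2% lower. The median log2 ratio of the 12 was 0.41, against -0.95 for all genes tested. Without the 24 granulocyte wells of lowest Gr1, 11 had enough UMIs, of which 3 were higher (Id2, Junb and Trib1) and 3 lower (Runx1, Myb and Zeb2).

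Irf4, the nearest relative of Irf8, was read with 52 UMIs in B lymphocytes (383 CPM) and with 2 to 5 in each other population. Egr1 had 41 of its UMIs in T lymphocytes and 0 in granulocytes. Gfi1b, the relative of Gfi1 that acts in the erythroid branch, gave 94 UMIs in erythroblasts and 22 in progenitor/stem cells, a log2 ratio of 2.42 (1.74 to 3.16), whereas Gfi1 gave 2 and 24. Of the 9 listed genes tested in erythroblasts, 2 were higher and 7 lower than in progenitor/stem cells, with a median log2 ratio of -2.25 against -0.98 for all genes, of which 12.1% were higher and 49.4% lower. Id2 had 44 UMIs in T lymphocytes and 0 in B lymphocytes.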
